A study of Mus musculus with 6 samples.

Results

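The circadian clock gene Bmal1, held in the files under its older symbol Arntl (ENSMUSG00000055116), was examined in nuclei of the mouse left ventricle together with 4 genes that act with it. These were Clock (ENSMUSG00000029238), Npas2 (ENSMUSG00000026077), Nfil3 (ENSMUSG00000056749) and Cry1 (ENSMUSG00000020038). They are 5 of the 33696 genes in the count matrices. The genes were picked by name after their levels in the groups had been seen, as CPM of each library and cell class, so their differences between groups are given as a description, with a standard error and without a test. CPM are counts of unique molecular identifiers (UMIs), each a tagged RNA molecule, scaled to the UMI total of the class in that library.

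Single-nucleus RNA sequencing was performed on 6 libraries in 3 groups of male mice aged 12 weeks, n = 2 in each. The WT-CD group held wild-type littermates fed control diet. R403Q-CD mice carried 1 mutated allele of the cardiac myosin heavy chain, Myh6+/R404Q (R403Q), a model of hypertrophic cardiomyopathy, and ate the same diet. R403Q-EMPA mice carried the same allele and ate diet with empagliflozin, an inhibitor of sodium-glucose cotransporter 2, at 0.15 mg per g of diet or about 15 mg/kg. The allele is carried by every cell, while Myh6 itself is a gene of cardiomyocytes. There was no wild-type group on empagliflozin, so the drug was compared only in mutant hearts. Mice for RNA sequencing were killed after 2 weeks on the diet by the published methods, although the text deposited with the samples names the longer course of the main experiment. The hour of tissue collection and any processing batch are not given in the sources used here, and neither can be told apart from the groups if they differed between them. Nothing in the labels names the animal behind each library, so p-values measure the spread between these libraries only, which may be partly technical.

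The proteins BMAL1 and CLOCK pair through their basic helix-loop-helix and PAS domains and activate genes that carry E-box sequences. NPAS2 is a close relative of CLOCK that can take its place. Among the genes they activate are the Period and Cryptochrome genes, whose proteins, CRY1 included, enter the nucleus and repress the BMAL1 pair, which closes the loop. A second loop runs through the nuclear receptors: REV-ERB proteins, the products of Nr1d1 and Nr1d2, repress Bmal1, Npas2, Nfil3 and Cry1, and ROR proteins activate such genes at the same ROR element. NFIL3 is a basic leucine zipper repressor that binds the D-box, the site at which DBP, TEF and HLF activate. Because the arms run in opposite phase, transcripts of Bmal1 and Npas2 in the heart peak when those of Dbp, Nr1d1 and Nr1d2 are low. The clock in cardiomyocytes is known for its influence on metabolism and contractility.

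The sequence of the start site was read for all 5 genes, because the Arntl, Nfil3 and Cry1 promoters hold the letters of the elements just named. Sequences are those of RefSeq on GRCm38.p6, and all 5 symbols had at least 1 window, which runs from 250 bases before to 50 after an annotated start. The stretches with a match are shown 5′ to 3′ in the direction of the gene, with the matched letters in capitals. For Arntl they are 30 bases around each match at chr7:113207494-113207523 and chr7:113207530-113207559 on the plus strand, the former across the start of 1 annotated transcript and the latter just inside its first exon. For Nfil3 they are the 60 bases before the start at chr13:52981040-52981099 and for Cry1 the 100 bases before the start at chr10:85185055-85185154, both on the minus strand.
Arntl, ROR element variant: tggtcggaaagTAGGTTAgtggtgcgacat
Arntl, ROR element: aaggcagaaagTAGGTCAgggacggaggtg
Nfil3, ROR element on the other strand: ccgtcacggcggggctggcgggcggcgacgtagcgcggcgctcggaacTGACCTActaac
Cry1, E′-box on the other strand and E-box: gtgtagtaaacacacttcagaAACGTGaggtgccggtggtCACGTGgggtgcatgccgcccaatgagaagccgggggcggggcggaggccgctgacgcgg

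Motifs were searched as exact letters on both strands, and no match in the 5 genes overlapped that of another motif. The ROR element TAGGTCA was in 2.61% of 32851 windows of the same length, its variant TAGGTTA in 1.44%, the E-box CACGTG in 7.15%, the E′-box CACGTT in 4.68% and the D-box TTANGTAA in 2.32%. The variant was added after the Arntl sequence had been seen. Among the 5 genes, TAGGTCA was in 2, Arntl and Nfil3, and the E-box and E′-box were in 1, Cry1. The single window of Npas2 and the 3 windows of Clock held none of these letter strings. Of 28 other clock genes, 21 had a window, and TAGGTCA was in 1 of them, Leo1, while the E-box was in 6, namely Per1, Ciart, Bhlhe41, Tef, Lonrf3 and Tspan4. The E′-box was in 3, Cry2, Nr1d1 and Rorb, the D-box in 2, Per3 and Rorb, and the ROR element variant in 0. These matches are a description of the letters and say nothing of binding in these nuclei.

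Filters kept 46005 nuclei of 69249 barcodes, 6409 to 9514 per library, with 23624326 to 37411887 UMIs per library and median depths of 2663 to 4065 UMIs per nucleus. Cluster names rest on marker genes and carry "-like", because the labels do not type single nuclei. There were 19 clusters, and 10 classes had at least 20 nuclei in every library. The largest were fibroblast-like (14147 nuclei), endothelial-like (12425) and cardiomyocyte-like (6980). The 8 cardiomyocyte markers summed to 51332 to 64330 CPM in cardiomyocyte-like nuclei, and in fibroblast-like nuclei to 1117 and 1281 CPM in WT-CD and to 1736 to 1861 CPM in the 4 mutant libraries. The library of WT-CD replicate 1 stood apart in the clock and glucocorticoid genes, as its values beside the results show. Its 8 fibroblast markers summed to 518 CPM in endothelial-like nuclei against 166 to 199 CPM in the other libraries. In cardiomyocyte-like nuclei they summed to 202 CPM against 57.1 to 95.8 CPM. Pairs of libraries shared 23 to 56 barcodes.

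Arntl was higher in both R403Q-EMPA libraries than in all 4 other libraries in 8 of the 10 classes, and these levels led to its choice. In fibroblast-like nuclei, Arntl was at 2.42 and 5.22 CPM in WT-CD, 5.49 and 5.01 CPM in R403Q-CD, and 32.0 and 19.1 CPM in R403Q-EMPA. The groups on control diet overlapped, and both treated libraries lay above them, at a mean of 25.5 ± 9.09 CPM (SD, n = 2) against 5.25 ± 0.342 in R403Q-CD and 3.82 ± 1.98 in WT-CD. The ratio of the means was 4.87 to R403Q-CD and 6.69 to WT-CD. These levels rest on 27, 58, 51, 47, 231 and 96 UMIs. On the scale of the edgeR fit, the log2 difference was 2.24 (SE 0.36) between R403Q-EMPA and R403Q-CD, 2.69 (SE 0.37) between R403Q-EMPA and WT-CD, and 0.45 (SE 0.40) between R403Q-CD and WT-CD. The last of these was -0.04 without WT-CD replicate 1 and 1.17 without WT-CD replicate 2, so it has no settled direction.

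In endothelial-like nuclei the Arntl level was 4.67 and 6.75 CPM in WT-CD, 7.52 and 8.34 CPM in R403Q-CD, and 28.2 and 40.9 CPM in R403Q-EMPA. All 3 groups were separate there, and the step from R403Q-CD to R403Q-EMPA was the larger, with a log2 difference of 2.06 (SE 0.26) against 0.45 (SE 0.30) between the groups on control diet, which ran from 0.20 to 0.87 over the alternatives. In cardiomyocyte-like nuclei Arntl was at 4.70 and 11.2 CPM in WT-CD, 15.2 and 10.9 CPM in R403Q-CD, and 21.4 and 42.4 CPM in R403Q-EMPA. The replicates of R403Q-EMPA differed by more than the lower of them exceeded the higher R403Q-CD library, and the log2 difference was 1.24 (SE 0.41). Over the alternatives it ran from 0.63 to 1.67, against 1.84 to 2.54 in fibroblast-like and 1.78 to 2.35 in endothelial-like nuclei. Whether the difference itself differs between these classes was not tested.

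Among the 8 classes in which Arntl passed the filter on low counts, the endocardial-like class held its largest log2 difference between R403Q-EMPA and R403Q-CD, 3.69 (SE 0.41), with levels of 4.48 and 6.77 CPM in WT-CD, 1.57 and 6.44 CPM in R403Q-CD, and 73.0 and 49.3 CPM in R403Q-EMPA. In this class the 6 endocardial markers summed to 8845 and 11191 CPM in R403Q-EMPA and to 13586 to 16275 CPM in the other libraries, and the part of this in the Arntl values was not tested. In pericyte-like nuclei Arntl was at 1.75 and 1.37, 4.34 and 2.72, and 28.9 and 19.5 CPM, the groups in the same sequence, with a log2 difference of 2.73 (SE 0.44) between the last pair. Myeloid-like nuclei stood at 13.2 and 8.82, 18.5 and 31.8, and 46.3 and 39.3 CPM, with a log2 difference of 0.77 (SE 0.31). Lymphatic endothelial-like nuclei stood at 51.1 CPM in each R403Q-EMPA library and at 8.31 to 24.7 CPM in the others.

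Lymphoid-like nuclei were an exception. Arntl was at 86.8 and 114 CPM in WT-CD, 108 and 169 CPM in R403Q-CD, and 126 and 139 CPM in R403Q-EMPA, so that the treated libraries lay within the range of the others and the ratio to R403Q-CD was 0.956. The class was small, with 443 nuclei in all. In epicardial-like nuclei, Arntl gave 0, 0, 0 and 2 UMIs in the libraries on control diet and 27 and 2 in R403Q-EMPA, so the high value came from replicate 1. Smooth muscle-like nuclei gave 3 UMIs of Arntl in all, which allows no order of the groups.

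The count of classes is read against all genes, since many genes separated the treated libraries. Both R403Q-EMPA libraries lay above the other 4 for 16.8% of all genes tested in fibroblast-like nuclei, 12.2% in endothelial-like, 18.6% in cardiomyocyte-like, 13.3% in pericyte-like, 14.0% in endocardial-like, 12.4% in myeloid-like, 8.66% in lymphatic endothelial-like, 10.0% in lymphoid-like, 10.6% in epicardial-like and 7.23% in smooth muscle-like nuclei. The counts for the 5 genes were 8 classes of 10 for Arntl, 7 for Npas2, 7 for Clock, 5 for Nfil3 and 3 for Cry1, and none lay below all 4 in any class. The genes were chosen on this contrast, so nothing is read from their counts. Without the library of WT-CD replicate 1, an alternative added after the data were seen, the counts were 8, 7, 7, 5 and 3. With each nucleus thinned to 500 UMIs, also added then, the count was 1 for Npas2 and 0 for Cry1.

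**Figure D1:**
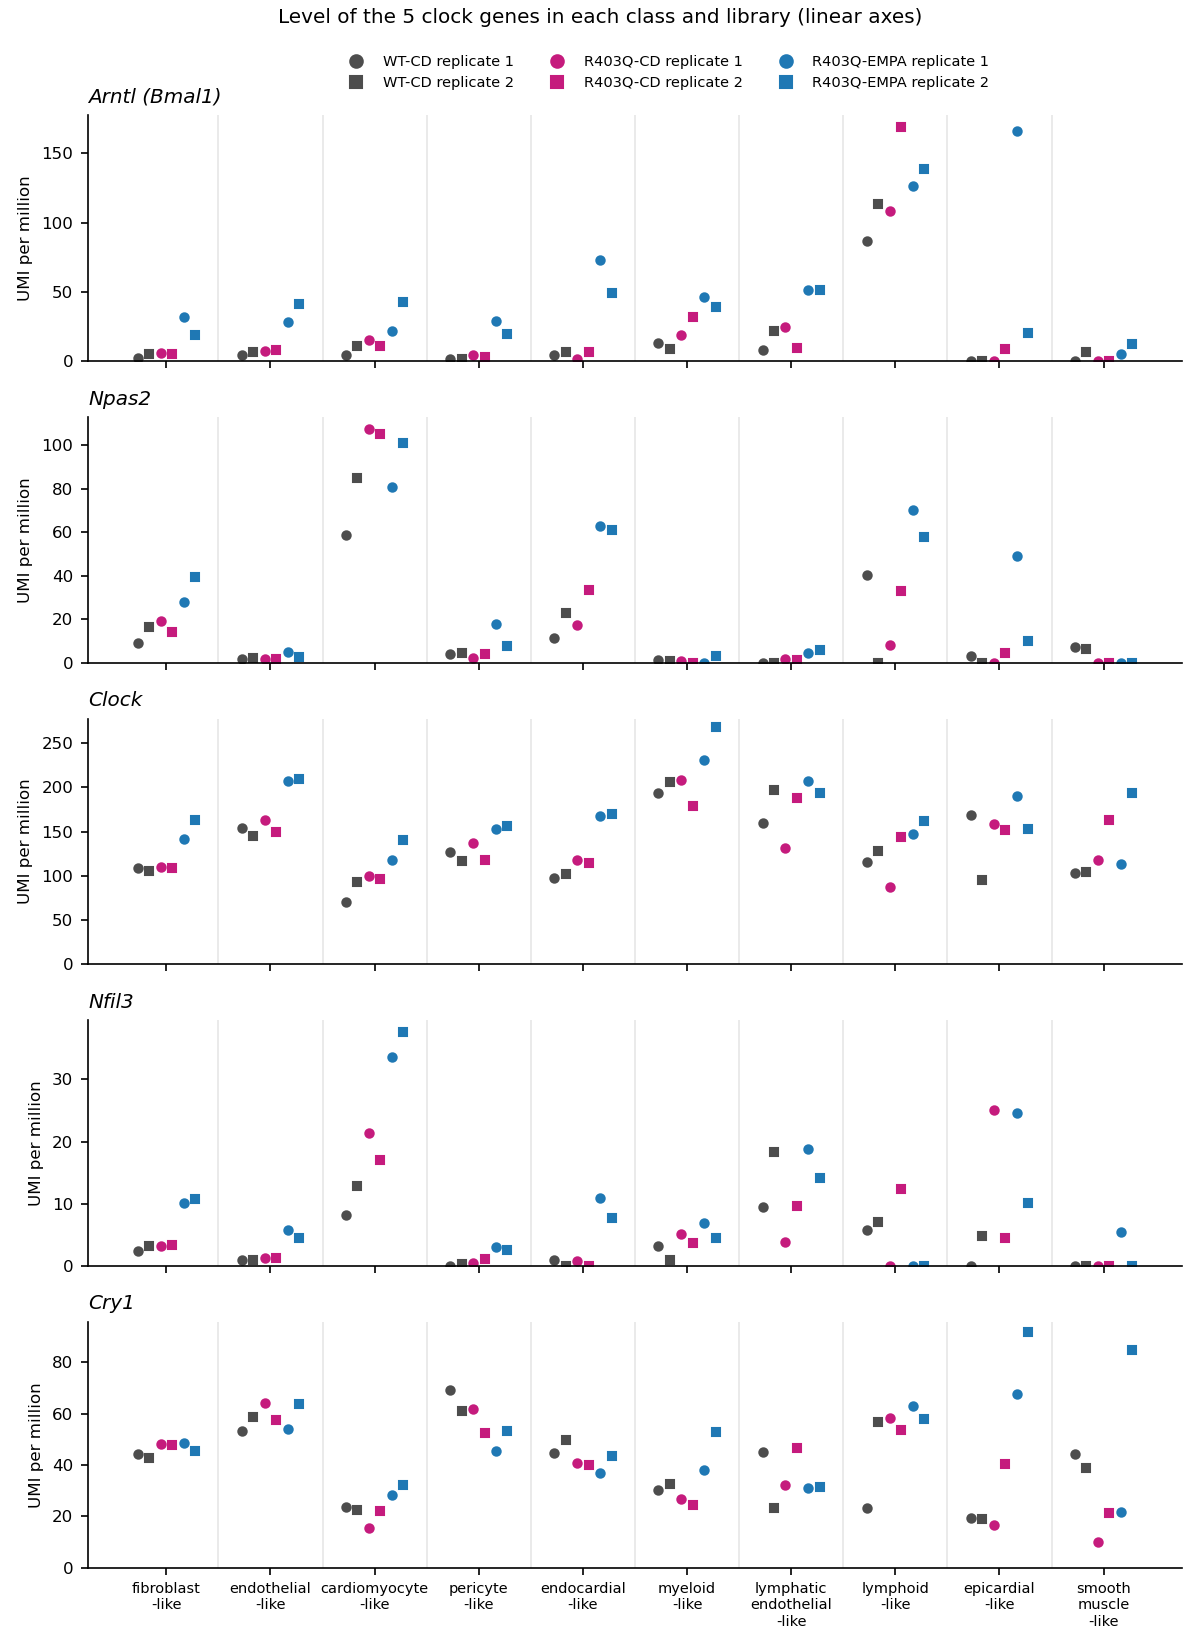
Level in CPM (linear axes from 0) of Arntl, Npas2, Clock, Nfil3 and Cry1 in 10 cell classes, with 1 point per library, colour for the group and shape for the replicate. Both points of R403Q-EMPA lie above the other 4 in 8 classes for Arntl and in 3 for Cry1, and Npas2 is highest in cardiomyocyte-like nuclei.

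Clock, the partner of BMAL1 whose transcript is known to vary little over the day, differed by a smaller ratio. In fibroblast-like nuclei it was at 108 and 106 CPM in WT-CD, 109.9 and 109 CPM in R403Q-CD, and 142 and 163 CPM in R403Q-EMPA. The groups on control diet differed by a few CPM, and the mean of R403Q-EMPA, 152 ± 15.0 CPM (SD, n = 2), was 1.39 times that of R403Q-CD. The log2 difference was 0.43 (SE 0.13), and it was 0.03 (SE 0.13) between R403Q-CD and WT-CD. In endothelial-like nuclei Clock was at 154 and 145, 163 and 149, and 207 and 209 CPM, the groups in the same sequence. The treated libraries lay above the other 4 by more than the replicates differed, with a log2 difference of 0.39 (SE 0.12) to R403Q-CD. In endocardial-like nuclei the levels were 97.0 and 102, 118 and 114, and 168 and 169 CPM, with a log2 difference of 0.52 (SE 0.15).

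In cardiomyocyte-like nuclei the Clock level was 70.0 and 92.6 CPM in WT-CD, 99.6 and 96.0 CPM in R403Q-CD, and 117 and 141 CPM in R403Q-EMPA. The 3 groups were separate, and the log2 difference between R403Q-EMPA and R403Q-CD was 0.34 (SE 0.20), with a range of 0.17 to 0.49 over the alternatives. Pericyte-like nuclei, at 153 and 156 CPM in R403Q-EMPA and 117 to 138 CPM in the others, and myeloid-like nuclei, at 231 and 268 CPM against 179 to 209 CPM, also had both treated libraries on top, while the control-diet groups overlapped, with log2 differences to R403Q-CD of 0.23 (SE 0.15) and 0.33 (SE 0.17). In lymphatic endothelial-like, epicardial-like and smooth muscle-like nuclei the treated libraries overlapped the others. The lymphatic endothelial-like values were 160.2 and 197, 131 and 188, and 208 and 193 CPM.

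Npas2, which encodes the relative of CLOCK, was the gene whose levels depended most on the cell class. Cardiomyocyte-like nuclei held the highest level in each of the 6 libraries, at 58.9 and 84.9 CPM in WT-CD, 108 and 105 CPM in R403Q-CD, and 80.9 and 101 CPM in R403Q-EMPA. Here the order of the groups was another one: both R403Q-CD libraries lay above both of WT-CD and both of R403Q-EMPA, and the R403Q-EMPA values overlapped those of WT-CD. The log2 difference was 0.54 (SE 0.23) between R403Q-CD and WT-CD, -0.28 (SE 0.23) between R403Q-EMPA and R403Q-CD, and 0.26 (SE 0.23) between R403Q-EMPA and WT-CD. Over the alternatives these ran from 0.22 to 0.96, from -0.49 to -0.10 and from -0.07 to 0.67, in the same order. The first was 0.22 without WT-CD replicate 1 and 0.96 without WT-CD replicate 2, and the second was -0.10 without R403Q-EMPA replicate 1 and -0.49 without R403Q-EMPA replicate 2.

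Fibroblast-like nuclei held Npas2 at 8.87 and 16.4 CPM in WT-CD, 19.4 and 14.3 CPM in R403Q-CD, and 28.1 and 39.4 CPM in R403Q-EMPA. The control-diet groups overlapped, and the treated libraries lay above both, with a log2 difference of 0.95 (SE 0.32) to R403Q-CD and 1.36 (SE 0.32) to WT-CD. Endocardial-like nuclei showed the same order at a higher level, with 11.4 and 23.0, 17.3 and 33.4, and 62.8 and 61.2 CPM, and a log2 difference of 1.20 (SE 0.32) between R403Q-EMPA and R403Q-CD. In pericyte-like nuclei the values were 3.85 and 4.45, 2.17 and 3.88, and 17.99 and 7.62 CPM. Endothelial-like nuclei gave 7, 16, 11, 13, 47 and 7 UMIs, or 1.62 to 2.16 CPM on control diet and 5.10 and 2.45 CPM in R403Q-EMPA, so that only replicate 1 stood clear of the rest. In cluster 7, which holds most endothelial-like nuclei, Npas2 had a ratio of 0.984 between R403Q-EMPA and R403Q-CD, against 2.20 in the whole class. Myeloid-like nuclei gave 6 UMIs in all 6 libraries together.

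Nfil3, which encodes the D-box repressor, had low levels that separated the treated libraries in the 5 largest classes. In cardiomyocyte-like nuclei it was at 8.22 and 12.9 CPM in WT-CD, 21.5 and 17.1 CPM in R403Q-CD, and 33.6 and 37.6 CPM in R403Q-EMPA. The groups did not overlap, and the log2 difference was 0.84 (SE 0.26) between R403Q-CD and WT-CD and 0.83 (SE 0.24) between R403Q-EMPA and R403Q-CD. The former ran from 0.47 to 1.33 over the alternatives and the latter from 0.65 to 1.02. In fibroblast-like nuclei it was at 2.42 and 3.24, 3.23 and 3.30, and 10.1 and 10.8 CPM, where the control-diet groups overlapped and the log2 difference between R403Q-EMPA and R403Q-CD was 1.62 (SE 0.28). In endothelial-like nuclei it was at 0.983 and 0.945, 1.33 and 1.25, and 5.75 and 4.54 CPM, from 4, 7, 9, 9, 53 and 13 UMIs. Endocardial-like nuclei gave 2, 0, 1 and 0 UMIs on control diet and 28 and 13 in R403Q-EMPA. Pericyte-like nuclei gave only 0, 1, 1 and 3 UMIs on control diet and 4 and 3 in R403Q-EMPA, too few to read an order. In the smaller classes the values overlapped, as in lymphatic endothelial-like nuclei at 9.49 and 18.4, 3.80 and 9.62, and 18.9 and 14.2 CPM.

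Cry1, which encodes a repressor of the BMAL1 pair, was nearly level over the groups when all nuclei were summed, at 41.1 and 42.2 CPM in WT-CD, 40.4 and 40.1 CPM in R403Q-CD, and 40.4 and 41.8 CPM in R403Q-EMPA. In fibroblast-like nuclei its values were 44.2 and 42.8, 48.0 and 47.9, and 48.6 and 45.4 CPM, and the log2 difference between R403Q-EMPA and R403Q-CD was -0.07 (SE 0.12). That in endothelial-like nuclei was -0.09 (SE 0.16) and that in endocardial-like nuclei was -0.04 (SE 0.20). In cardiomyocyte-like nuclei Cry1 was at 23.5 and 22.3 CPM in WT-CD, 15.4 and 21.9 CPM in R403Q-CD, and 28.2 and 32.3 CPM in R403Q-EMPA. The treated libraries were the highest and those of R403Q-CD the lowest, with a log2 difference of 0.64 (SE 0.19) between them. Myeloid-like nuclei, at 38.0 and 52.9 CPM in R403Q-EMPA and 24.6 to 32.6 CPM in the others, and epicardial-like nuclei, at 67.6 and 91.6 CPM against 16.7 to 40.3 CPM, also had both treated libraries on top.

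All 5 genes passed the filter on low counts in fibroblast-like, endothelial-like, cardiomyocyte-like and endocardial-like nuclei, and 4 did in pericyte-like nuclei, where Nfil3 did not. In lymphatic endothelial-like nuclei 4 passed, in myeloid-like nuclei 3, in lymphoid-like and epicardial-like nuclei 2, and in smooth muscle-like nuclei 1, Clock. The median log2 difference of the 5 genes between R403Q-EMPA and R403Q-CD was 0.95 in fibroblast-like, 1.22 in endothelial-like and 0.64 in cardiomyocyte-like nuclei, where the medians of all genes tested were 0.0016, 0.0052 and 0.0091. The 5 genes were chosen with these levels known, so nothing is read from that gap. The endothelial-like median is the value of Npas2, which rests on few UMIs, and it was 0.50 without R403Q-EMPA replicate 1. Between R403Q-CD and WT-CD the medians of the 5 were 0.20, 0.15 and 0.54, and with 1 library left out they ran from -0.01 to 0.49, from 0.07 to 0.30 and from 0.11 to 0.96.

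Across the classes the 5 genes had different orders of level, given here as the mean of 6 libraries ± SD. Arntl was highest in lymphoid-like nuclei, at 124 ± 28.2 CPM, and lowest in smooth muscle-like nuclei, at 4.00 CPM. Clock was highest in myeloid-like nuclei, at 214 ± 31.3 CPM, and lowest in cardiomyocyte-like nuclei, at 103 CPM, which lay below fibroblast-like nuclei in 6 of 6 libraries. Npas2 was highest in cardiomyocyte-like nuclei, at 89.8 ± 18.7 CPM, followed by lymphoid-like and endocardial-like nuclei, both at 34.9 CPM, and fibroblast-like nuclei at 21.1 CPM. Its lowest level was 0.966 CPM in myeloid-like nuclei.

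Nfil3 was highest in cardiomyocyte-like nuclei too, at 21.8 ± 11.6 CPM, and next came lymphatic endothelial-like nuclei at 12.4 CPM and epicardial-like nuclei at 11.5 CPM. These means pool the 3 groups, and in both WT-CD libraries lymphatic endothelial-like nuclei, at 9.49 and 18.4 CPM, lay above cardiomyocyte-like nuclei, at 8.22 and 12.9 CPM, which were higher in the other 4. Cry1 was highest in endothelial-like nuclei, at 58.6 ± 4.58 CPM, with pericyte-like nuclei at 57.2 CPM, and lowest in cardiomyocyte-like nuclei, at 23.9 CPM. In both WT-CD libraries the pericyte-like level of Cry1, 69.4 and 60.9 CPM, was above the endothelial-like one, 53.4 and 58.8 CPM. Over the 6 libraries, the ranges of every neighbouring pair of classes in these orders overlapped. Within the libraries, 5 neighbouring pairs kept their order in 6 of 6: Npas2 was higher in cardiomyocyte-like than in lymphoid-like nuclei and higher in pericyte-like than in endothelial-like nuclei, Clock in fibroblast-like than in cardiomyocyte-like nuclei, Nfil3 in endothelial-like than in pericyte-like nuclei, and Cry1 in myeloid-like than in cardiomyocyte-like nuclei. All other neighbours kept it in 1 to 5 of 6 libraries. Levels are not compared between genes, because 3′ counts in nuclei depend on the transcript.

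The makeup of some classes shifted between the groups, so the levels were also read within single clusters of the 3 large classes. Among cardiomyocyte-like nuclei, cluster 13, led by Ryr3 and Nppb, held 52 and 47 nuclei of the WT-CD libraries, 129 and 233 of R403Q-CD, and 876 and 669 of R403Q-EMPA. Cluster 11, led by Mylk4 and Kcnj3, held 1019 and 600, 708 and 507, and 292 and 734 nuclei. Among fibroblast-like nuclei, cluster 3, led by Cilp, Thbs4 and Postn, held 589 nuclei of R403Q-EMPA replicate 1 and 80 to 180 of each other library. Cluster 4, led by Grm8 and Kcnip1, held 1196 and 1147 nuclei in WT-CD and 1142 and 909 in R403Q-CD, but 182 and 429 in R403Q-EMPA, while cluster 2 held 892 to 2321 in all libraries. Clusters were formed on 2000 variable genes, 2 of them clock genes, and cluster sizes are given only to place the levels.

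Arntl was above the other 4 libraries in both R403Q-EMPA libraries in 8 of 9 clusters, Clock in 8, Nfil3 in 7, Npas2 in 3 and Cry1 in 1. The same was found for 12.6%, 8.15% and 13.7% of the genes tested in the fibroblast-like clusters 2, 3 and 4, for 13.5%, 10.0% and 7.93% in the endothelial-like clusters 7, 8 and 15, and for 11.1%, 15.3% and 11.3% in the cardiomyocyte-like clusters 10, 11 and 13. As for the classes, nothing is read from the counts of the 5 genes.

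In cluster 11 Arntl was at 3.69 and 10.5 CPM in WT-CD, 15.2 and 11.05 CPM in R403Q-CD, and 25.4 and 44.4 CPM in R403Q-EMPA, and in cluster 13 at 12.4 and 8.37, 16.3 and 11.5, and 19.8 and 39.6 CPM. The treated libraries were on top inside both clusters, with replicate 2 of R403Q-EMPA the highest in each. Nfil3 in cluster 13 stood at 6.21 and 12.5, 18.1 and 20.5, and 36.4 and 36.2 CPM, which repeats the 3 levels of the whole class. Npas2 in cluster 11 was at 60.2 and 83.4, 108 and 105, and 102 and 97.6 CPM, so there too R403Q-CD was on top. The ratio of R403Q-EMPA to R403Q-CD for Npas2 was 0.936 in cluster 11 and 0.815 in cluster 13, but 1.05 in cluster 10. Cry1 in cluster 11 was at 36.8 and 30.2 CPM in R403Q-EMPA and 14.9 to 23.5 CPM in the others.

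Within the fibroblast-like class, Arntl in cluster 2, led by Gfpt2 and Clec3b, was at 2.77 and 5.93, 6.26 and 6.25, and 23.4 and 21.2 CPM, again with R403Q-EMPA last. In cluster 3 it was at 8.17 and 14.6, 13.4 and 4.73, and 48.7 and 21.9 CPM, and in cluster 4 at 0.600 and 3.38, 3.97 and 3.65, and 5.42 and 11.1 CPM. The treated libraries were the highest in all 3 clusters that make up the class, at levels that differed between the clusters. The ratio of the mean of R403Q-EMPA to that of R403Q-CD was 3.56 in cluster 2, 3.89 in cluster 3 and 2.17 in cluster 4, each below the 4.87 of the whole class, in which cluster 4, with the lowest levels, held fewer nuclei in R403Q-EMPA. In the endothelial-like cluster 7, led by Car4 and Kit, Arntl was at 32.5 and 46.4 CPM in R403Q-EMPA and 5.54 to 8.78 CPM in the others. The exception for Arntl was cluster 10, cardiomyocyte-like nuclei with Nppa among the leading genes, where the values were 29.8 and 43.6, 9.94 and 6.24, and 25.1 and 48.2 CPM on 60 to 388 nuclei per library.

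**Figure D2:**
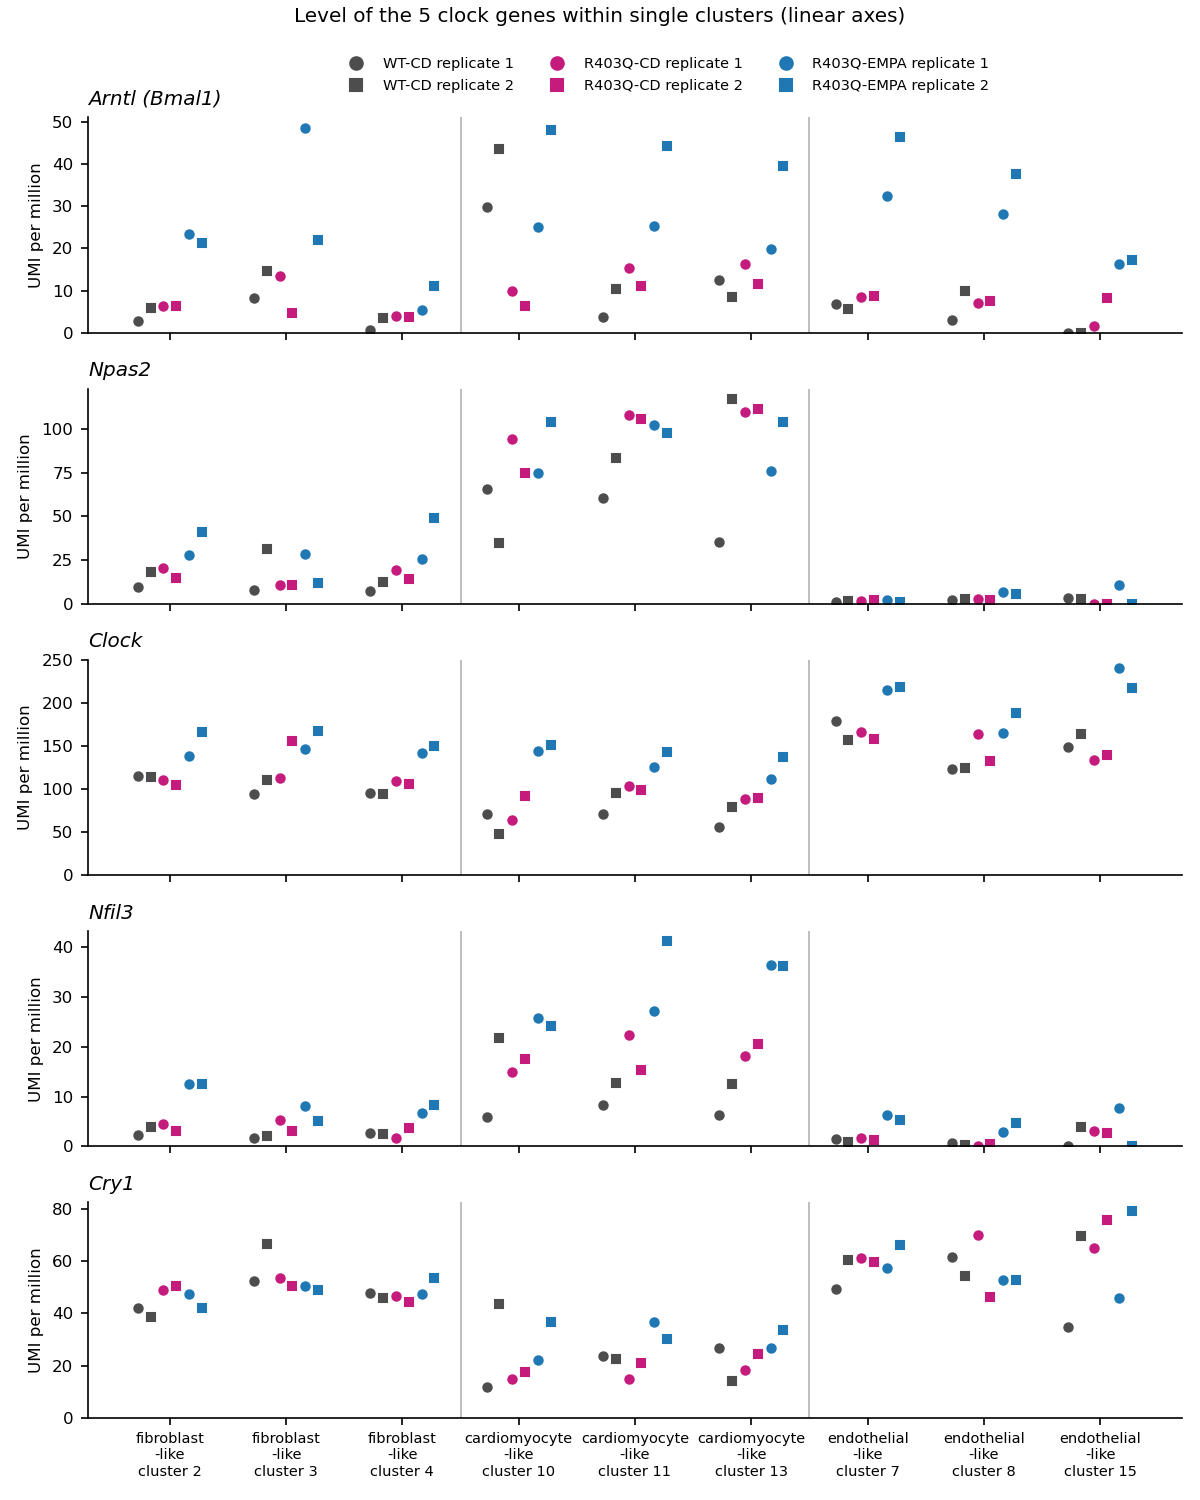
Level in CPM (linear axes from 0) of the 5 genes inside each of 9 clusters of fibroblast-like, cardiomyocyte-like and endothelial-like nuclei, with 1 point per library, colour for the group and shape for the replicate. Both points of R403Q-EMPA lie above the other 4 for Arntl in 8 clusters and for Npas2 in 3.

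The share of nuclei with a UMI was read after each nucleus had been thinned to 500 UMIs, so that depth was equal. In fibroblast-like nuclei the thinned share with Arntl was 0.136% (Wilson 95% interval 0.0580 to 0.317) and 0.194% for WT-CD, 0.252% and 0.101% for R403Q-CD, and 1.38% (0.923 to 2.07) and 1.02% (0.654 to 1.59) for R403Q-EMPA. The intervals of the treated libraries lay above those of the 4 others, and they cover counting error only. Arntl was chosen on this contrast and nuclei are not replicates, so nothing is read from that gap. Without thinning the shares were 0.938% ± 0.482, 1.62% ± 0.0776 and 6.57% ± 3.21 (SD, n = 2), at median depths of 2528 to 4564 UMIs. No class is known to lack Arntl, and the share from free RNA was not estimated. In pericyte-like nuclei, at median depths of 2019 to 3392 UMIs, the thinned share was 0% to 0.413% on control diet and 0.744% and 0.879% in R403Q-EMPA. In endothelial-like nuclei the thinned share was 1.83% and 1.89% in R403Q-EMPA and 0.259% to 0.442% in the others, and in cardiomyocyte-like nuclei 0.964% and 2.36% against 0.304% to 0.615%.

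The thinned share with Npas2 in cardiomyocyte-like nuclei was 3.09% and 3.90% for WT-CD, 5.64% and 3.44% for R403Q-CD, and 4.37% and 3.72% for R403Q-EMPA, so the groups overlapped. In myeloid-like nuclei, where Npas2 was almost unseen and its mean CPM over the 6 libraries was lowest, the share was 0% to 0.376%. Median depths there were 2410 to 3725 UMIs against 6871 to 12045 in cardiomyocyte-like nuclei. Whether the 6 UMIs of Npas2 in myeloid-like nuclei are free RNA was not tested. The share with Clock in fibroblast-like nuclei was 6.43% and 9.02% in R403Q-EMPA and 4.86% to 5.27% in the others. The share with Cry1 there was 1.74% to 2.53% over all 6 libraries, with no order of the groups.

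The other clock genes were tested with edgeR's quasi-likelihood test and Benjamini-Hochberg adjustment over all genes of a class. The lists and the tests were chosen with earlier results of these data known. The adjusted p-values are therefore not those of lists fixed in advance. The lists held 28 genes: repressors, ROR and REV-ERB receptors, the PAR bZIP factors Dbp, Tef and Hlf, kinases and ubiquitin ligases, and clock-controlled outputs. In R403Q-CD against WT-CD, 0 of 27 tested were called in fibroblast-like, 0 of 26 in endothelial-like and 0 of 27 in cardiomyocyte-like nuclei, where 1, 5 and 2 had an unadjusted p under 0.05 and DESeq2 called 0, 0 and 1. The calls over all genes were 0% in fibroblast-like, 0% in endothelial-like and 0.0973% in cardiomyocyte-like nuclei. An unadjusted p under 0.05 was found for 462 of 15082 genes in fibroblast-like, 497 of 13980 in endothelial-like and 970 of 14392 in cardiomyocyte-like nuclei. DESeq2 called 9 genes in fibroblast-like, 7 in endothelial-like and 102 in cardiomyocyte-like nuclei.

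In R403Q-EMPA against R403Q-CD, calls over all genes made up 0.411% in fibroblast-like, 0.265% in endothelial-like and 0.257% in cardiomyocyte-like nuclei. Of the clock genes, Hlf fell in fibroblast-like nuclei and Nr1d2 in cardiomyocyte-like nuclei, and 0 of 26 were called in endothelial-like nuclei, where 9 had an unadjusted p under 0.05, as had 1374 of all 13980 genes, and DESeq2 called 4. Hlf was at 237 and 255 CPM in R403Q-CD and 151 and 149 CPM in R403Q-EMPA, a log2 difference of -0.76 (SE 0.12, adjusted p 0.0481 by edgeR's quasi-likelihood test). Nr1d2 was at 113 and 114 CPM in R403Q-CD and 66.6 and 58.0 CPM in R403Q-EMPA, a log2 difference of -0.92 (SE 0.14, adjusted p 0.0386 by the same test). Without either WT-CD library, which enters the spread only, the counts were 5 in fibroblast-like, 5 in cardiomyocyte-like and 2 in endothelial-like nuclei, and without any 1 of the other libraries they were 0. DESeq2 called 6 in fibroblast-like and 5 in cardiomyocyte-like nuclei. Of all genes it called 256 in fibroblast-like, 229 in cardiomyocyte-like and 135 in endothelial-like nuclei.

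The treatment comparison was also made in the 7 smaller classes. In pericyte-like nuclei, where 0.56% of all genes were called, 5 of 24 clock genes tested fell in R403Q-EMPA against R403Q-CD, namely Dbp, Hlf, Tef, Nr1d2 and Per3. Dbp was at 45.5 and 62.5 CPM in R403Q-CD and 16.4 and 6.77 CPM in R403Q-EMPA, a log2 difference of -2.24 (SE 0.31, adjusted p 0.00279 by edgeR's quasi-likelihood test). The log2 differences of Hlf, Tef, Nr1d2 and Per3 were -0.99, -0.86, -0.81 and -0.81. DESeq2 called 5 as well, of 67 among all genes, but the count was 1 without R403Q-CD replicate 1 or R403Q-EMPA replicate 1, 0 without R403Q-CD replicate 2 and 3 without R403Q-EMPA replicate 2.

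In endocardial-like nuclei, where 0.569% of all genes were called, 2 of 26 fell, Per3 and Nr1d2. Per3 was at 156 and 155 CPM in R403Q-CD and 75.4 and 58.9 CPM in R403Q-EMPA, a log2 difference of -1.22 (SE 0.19, adjusted p 0.0166 by edgeR's quasi-likelihood test), and that of Nr1d2 was -0.94 (SE 0.18, adjusted p 0.0442 by the same test). DESeq2 called 4, of 115 among all genes, and the count was 6 without either WT-CD library, 1 without R403Q-EMPA replicate 2 and 0 without any 1 of the other libraries. In myeloid-like, lymphatic endothelial-like, lymphoid-like, epicardial-like and smooth muscle-like nuclei, 0.0554%, 0.0561%, 0%, 0.065% and 0.0602% of all genes were called, and 0 of 24, 23, 7, 19 and 15 clock genes, of which 5, 5, 1, 7 and 4 had an unadjusted p under 0.05. DESeq2 was not run in these 5 classes. Of all genes, 780 of 10822, 482 of 8907, 267 of 4285, 346 of 4613 and 189 of 3321 had such a p in these classes, in the same order. Against WT-CD, R403Q-EMPA had Dbp and Nr1d2 called lower in myeloid-like nuclei, at log2 differences of -1.81 and -1.04. Per3 and Nr1d2 were called lower in epicardial-like nuclei, at -2.34 and -2.43. No clock gene was called against WT-CD in lymphatic endothelial-like or lymphoid-like nuclei.

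In R403Q-EMPA against WT-CD, where 1.25%, 0.815% and 4.09% of all genes were called in fibroblast-like, endothelial-like and cardiomyocyte-like nuclei, 6, 5 and 6 clock genes fell and 0 rose. Dbp, Tef, Hlf and Nr1d2 fell in all 3 classes, although a fit of the 2 groups alone called only 2, 0 and 3 genes in these classes, which ends each endothelial-like call. Nr1d1 fell in fibroblast-like and endothelial-like nuclei, Ciart, a repressor of the BMAL1 pair, in fibroblast-like nuclei, and the repressors Per3 and Cry2 in cardiomyocyte-like nuclei. The median log2 difference of the clock genes tested was -0.23, -0.46 and -0.19. Without the library of R403Q-EMPA replicate 1 the count was 1 in each of the 3 classes. Without replicate 2 it was 6, 3 and 2 in the order of classes above, and without either R403Q-CD library it was 3, 4 and 3.

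Dbp, whose protein competes with NFIL3 at the D-box, was at 147 and 89.1 CPM in WT-CD, 73.8 and 94.6 CPM in R403Q-CD, and 42.1 and 23.7 CPM in R403Q-EMPA in fibroblast-like nuclei. Both treated libraries lay below the other 4, and WT-CD replicate 1 was the highest. Its log2 difference to WT-CD was -1.86 (SE 0.28, adjusted p 0.0222 by edgeR's quasi-likelihood test), and it was -2.63 (SE 0.44, adjusted p 0.0331) in endothelial-like and -2.10 (SE 0.37, adjusted p 0.0155) in cardiomyocyte-like nuclei. Hlf had log2 differences of -0.95 (SE 0.12, adjusted p 0.0152 by the same edgeR test), -2.08 (SE 0.26, adjusted p 0.0131) and -1.21 (SE 0.16, adjusted p 0.00591) in the same order. Tef had -0.76 (SE 0.13), -1.05 (SE 0.13) and -0.97 (SE 0.18), all 3 called.

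Nr1d1 and Nr1d2 encode the REV-ERB repressors of Bmal1. In fibroblast-like nuclei Nr1d1 was at 90.8 and 53.7 CPM in WT-CD, 38.4 and 52.8 CPM in R403Q-CD, and 20.1 and 13.3 CPM in R403Q-EMPA, with a log2 difference to WT-CD of -2.13 (SE 0.27, adjusted p 0.0152 by edgeR's quasi-likelihood test). Nr1d2 was at 228 and 222, 185 and 208, and 132 and 129 CPM there, and its log2 differences were -0.83 (SE 0.12), -1.14 (SE 0.18) and -0.73 (SE 0.14) in fibroblast-like, endothelial-like and cardiomyocyte-like nuclei. The treated libraries were the lowest for both genes in fibroblast-like nuclei. Per3 in cardiomyocyte-like nuclei was at 190.2 and 92.9, 99.8 and 103, and 66.2 and 56.3 CPM, with a log2 difference of -1.25 (SE 0.24, adjusted p 0.0202 by the same edgeR test), and Cry2, the relative of Cry1, had -0.79 (SE 0.17, adjusted p 0.0312). Not all clock genes were lower: Per2, which was not called, was at 135 and 181, 192 and 175, and 209 and 240 CPM in fibroblast-like nuclei.

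Of 11 other genes of the bHLH-PAS family, to which BMAL1, CLOCK and NPAS2 belong, 6 were tested in fibroblast-like, 6 in endothelial-like and 7 in cardiomyocyte-like nuclei. Epas1, the oxygen-regulated HIF2A factor, fell in cardiomyocyte-like nuclei in R403Q-EMPA against WT-CD. It was at 62.5 and 73.7 CPM in WT-CD and 46.0 and 40.8 CPM in R403Q-EMPA, with a log2 difference of -0.73 (SE 0.17, adjusted p 0.0492 by edgeR's quasi-likelihood test). No other was called in the 3 classes and comparisons. Arntl2, the paralogue of Arntl, was at 13.9 to 16.9 CPM in fibroblast-like nuclei over all 6 libraries and 1.64 to 5.11 CPM in cardiomyocyte-like nuclei.

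**Figure D3:**
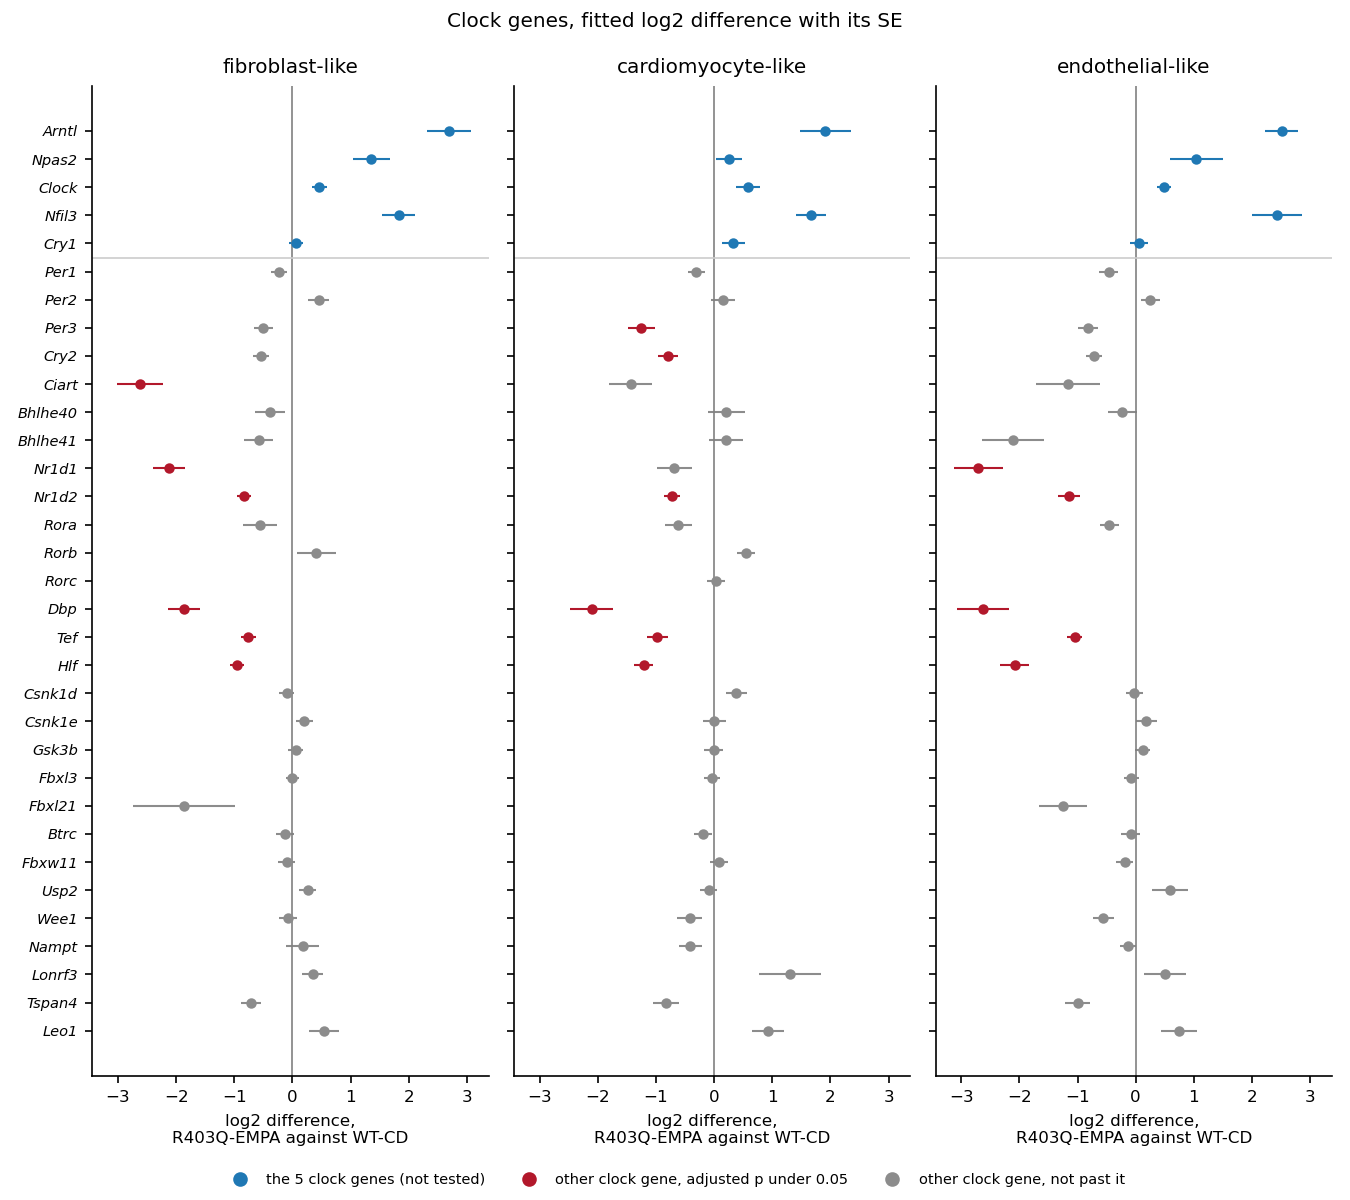
Log2 difference between R403Q-EMPA and WT-CD, with bars of 1 SE, for the 5 genes in blue, which were not tested, and 28 other clock genes in fibroblast-like, cardiomyocyte-like and endothelial-like nuclei, in red where the adjusted p of edgeR's test was under 0.05 and in grey otherwise, with no point for a gene that did not pass the filter on low counts. Arntl lies at 2.69, 1.92 and 2.51 in these classes, and Dbp at -1.86, -2.10 and -2.63.

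Other gene groups were read beside the clock genes, and among them the heat shock chaperones separated the treated libraries. The 8 heat shock chaperone genes summed to 704 and 706 CPM in R403Q-EMPA and 171 to 283 CPM in the other libraries in fibroblast-like nuclei, to 441 and 401 against 117 to 229 CPM in cardiomyocyte-like nuclei, and to 851 and 941 against 187 to 307 CPM in endothelial-like nuclei. In R403Q-EMPA against R403Q-CD, 4, 3 and 5 of the 8 were called higher in these classes. The sums of the 8 immediate early genes overlapped between treated and other libraries in all 3 classes. In fibroblast-like nuclei they were 238 and 181 CPM in R403Q-EMPA and 129 to 226 CPM in the others. The 7 glucocorticoid response genes, which follow a daily hormone rhythm, did not separate the treated libraries from the others. The lowest library was WT-CD replicate 1, at 1904 CPM in fibroblast-like nuclei against 2877 to 4158 CPM. Both R403Q-CD libraries were the highest in cardiomyocyte-like nuclei, at 2717 and 2516 CPM against 1318 to 2504 CPM. Both also lay above WT-CD in endothelial-like nuclei, at 3024 and 3181 CPM against 1361 and 2830 CPM. The part of stress at collection, of the hour of collection and of hormone level in the clock gene values was not tested.

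The genes most like the 5 were found by Pearson's r to their mean, over log2(CPM + 1) in 18 points, the 6 libraries in the 3 large classes, each class centred. Points of 1 library share its animal, depth and preparation, so r is a description. Among 12266 genes the highest were Siah2 at 0.95 and Gm10069, Kat6a, Ubn2 and Mrps6 at 0.93 each. Siah2, which encodes a ubiquitin ligase, was at 12.6 and 11.4 CPM in R403Q-EMPA and 4.84 to 7.57 CPM in the others in fibroblast-like nuclei. The lowest were Gm12216 and Luc7l2 at -0.95, Cirbp at -0.93, and Nectin2 and 5930430L01Rik at -0.92. Cirbp, which encodes the cold-inducible RNA-binding protein, was at 14.8 and 12.1 CPM in R403Q-EMPA against 23.4 to 29.0 CPM in the others there.

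Among the clock genes the lowest r were those of Tef at -0.91, Cry2 at -0.90, Dbp at -0.90, Hlf at -0.89, Nr1d2 at -0.87 and Per3 at -0.86, and the highest was that of Leo1 at 0.78. Among the 5 genes themselves, r to the mean of the other 4 was 0.95 for Arntl, 0.93 for Clock, 0.96 for Nfil3, 0.74 for Npas2 and 0.24 for Cry1. Arntl and Nfil3 had an r of 0.96 with each other, and Npas2 and Cry1 one of -0.09. The genes were picked for their levels in these libraries, so a high r among them is built into the choice.

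**Figure D4:**
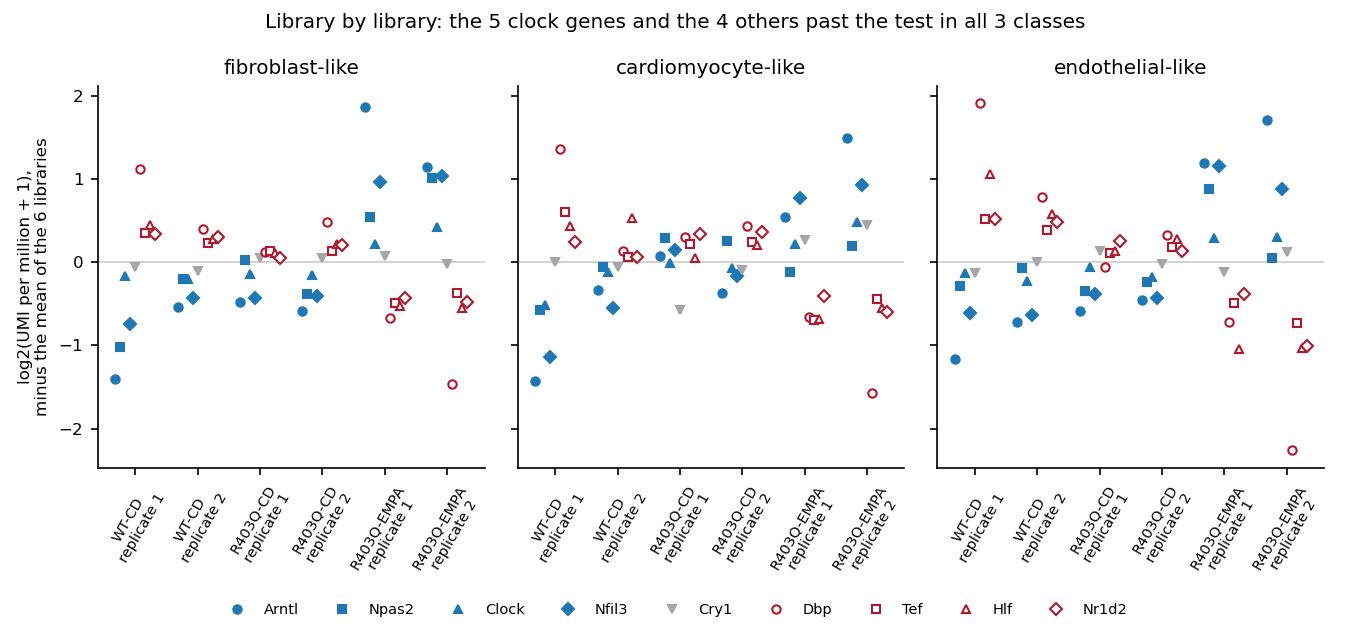
Log2(CPM + 1) minus the mean of the 6 libraries (vertical axis) in each library (horizontal axis) for Arntl, Npas2, Clock, Nfil3 and Cry1 and for the 4 other clock genes called in all 3 large classes, with 1 symbol per gene. In both R403Q-EMPA libraries and all 3 panels, Arntl and Nfil3 lie above 0 and Dbp, Tef, Hlf and Nr1d2 below 0.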

How the data were processed

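The authors isolated nuclei from frozen left ventricle and deposited, for each of 6 libraries, a matrix of UMI counts, already filtered by barcode. Per the submitters' processing notes it was made with Cell Ranger 8.0.1 on GRCm39, and whether intronic reads were counted is not given in the sources used here. The deposited counts were used without change. They held 31787308 to 45397128 UMIs per library.

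Barcodes with at least 500 UMIs, at least 300 genes and at most 5% mitochondrial UMIs were kept, and doublets predicted by scrublet (3.68% to 6.45% per library) were removed. Nuclei of all libraries were clustered together in scanpy 1.11.5 (Python 3.11.15; 2000 variable genes, 30 components, 15 neighbours, Leiden resolution 1) and named from fixed markers, a class needing at least 3 markers that were 2-fold enriched and seen in 10% of nuclei. Counts were summed per library and class. Genes passing filterByExpr were scaled by TMM and fitted with edgeR 4.0.16 in R 4.3.3, with all 6 libraries in 1 quasi-likelihood fit and Benjamini-Hochberg adjustment over all genes of a class and comparison. DESeq2 1.42.0 was an alternative, with thresholds of 0.05. The fit was tested on simulated data.

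The genes, the lists and the tests were chosen with earlier results of these data known. Named genes were the 5 genes, those of the lists, and the 5 with the highest and the 5 with the lowest r to the mean of the 5. Replicates were numbered in order of deposit and pair no libraries across groups. Other settings, run in the 3 large classes and, for R403Q-EMPA against R403Q-CD, in pericyte-like and endocardial-like nuclei, were the scaling, the filters, the clustering, a minimum of 1000 UMIs and each library left out.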

Additional observations from a re-analysis of the deposited data

Results flagged for a closer look

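Classes are counted here where the gene passed the filter on low counts, and the others are named apart. Npas2 in cardiomyocyte-like nuclei was lower in both R403Q-EMPA libraries than in both R403Q-CD libraries, with a ratio of means of 0.855 (1.05 in cluster 10 of that class), while both lay above in 4 other classes, fibroblast-like, endothelial-like, pericyte-like and endocardial-like nuclei. The same held at low counts in 3 classes in which Npas2 did not pass, lymphatic endothelial-like, lymphoid-like and epicardial-like nuclei. Cry1 in lymphatic endothelial-like nuclei had a ratio of 0.789 in the same comparison, while both treated libraries lay above in 3 classes, cardiomyocyte-like, myeloid-like and epicardial-like nuclei. In smooth muscle-like nuclei, where Cry1 did not pass, it was at 44.4 and 39.0 CPM in WT-CD, 9.81 and 21.3 CPM in R403Q-CD, and 21.6 and 84.9 CPM in R403Q-EMPA. Between R403Q-CD and WT-CD, Cry1 was lower in both R403Q-CD libraries in cardiomyocyte-like (ratio 0.814), endocardial-like (0.854) and myeloid-like nuclei (0.819), and higher in both in 1 class, fibroblast-like nuclei. These differences between classes were not tested.

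Barcodes removed by the filters, 2411 to 4811 per library, are outside the classes as reported, and some of them enter only the settings without a mitochondrial filter or with doublets kept. In them Arntl was at 24.3 and 33.3 CPM in R403Q-EMPA, a mean of 28.8 CPM, and at 6.17 to 8.78 CPM in the other libraries. Nfil3 was at a mean of 14.5 CPM in R403Q-EMPA and at most 11.9 CPM elsewhere. Clock had a mean of 141 CPM against at most 119.9 CPM elsewhere. Npas2, at 25.7 and 35.5 CPM in R403Q-EMPA and 12.9 to 27.3 CPM elsewhere, and Cry1, at 39.8 and 44.5 CPM against 29.3 to 46.4 CPM, overlapped.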

How the results depend on the processing

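No paired analysis was possible because replicate numbers were given in order of deposit and link no libraries of different groups. Over the settings, 9 of 45 log2 differences of the 5 genes in the large classes changed sign at least once, with reported sizes of at most 0.45. Of those of Arntl, Nfil3 or Clock between R403Q-EMPA and either other group, 0 did. The genes were chosen on that contrast, so a kept sign there is built into the choice. The median of the 5 genes in cardiomyocyte-like nuclei between R403Q-CD and WT-CD was 0.31 without a mitochondrial filter, and in endothelial-like nuclei on raw CPM it was 0.76 between R403Q-EMPA and R403Q-CD and 0.64 between R403Q-EMPA and WT-CD. With nuclei thinned to 500 UMIs, 1 class for Npas2 and 0 for Cry1 had both treated libraries on top.

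Counts of other clock genes called depended on the settings, and the cause was not tested. With no filter on low counts, the comparison of the control-diet groups, that of R403Q-EMPA to R403Q-CD and that of R403Q-EMPA to WT-CD gave 1, 8 and 11 in fibroblast-like, 1, 9 and 10 in cardiomyocyte-like and 2, 7 and 10 in endothelial-like nuclei. For R403Q-EMPA against R403Q-CD, DESeq2 called 6, 5 and 4 in these classes, and a fit of the 2 groups alone 5, 5 and 2. For R403Q-EMPA against WT-CD that fit called 2, 3 and 0, and DESeq2 called 9 in endothelial-like nuclei. In cardiomyocyte-like nuclei DESeq2 and the setting without a mitochondrial filter each called 1 in R403Q-CD against WT-CD. In fibroblast-like nuclei, without that filter or with doublets kept, 0 were called in R403Q-EMPA against R403Q-CD. The same comparison gave 8 in pericyte-like and 8 in endocardial-like nuclei with no filter on low counts, and in the latter 4 with DESeq2, 1 without a mitochondrial filter and 6 in a fit of the 2 groups alone.

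With 1 library left out, the medians of the 5 genes, in the order of comparisons above, ran from -0.01 to 0.49, from 0.67 to 1.20 and from 0.93 to 1.93 in fibroblast-like nuclei. In cardiomyocyte-like nuclei they ran from 0.11 to 0.96, from 0.43 to 0.76 and from 0.31 to 0.93, and from 0.07 to 0.30, from 0.50 to 1.52 and from 0.52 to 1.35 in endothelial-like nuclei. Calls of other clock genes for the comparisons with R403Q-EMPA were 0 to 5 and 1 to 6 in fibroblast-like, 0 to 5 and 1 to 7 in cardiomyocyte-like, and 0 to 2 and 1 to 7 in endothelial-like nuclei, and they were 0 for the other comparison. For R403Q-EMPA against R403Q-CD they were 0 to 7 in pericyte-like and 0 to 6 in endocardial-like nuclei. A library alone in its group is assumed to vary like the rest. Depth limits Nfil3 and Npas2 outside the large classes, where many libraries held under 10 UMIs. It limits them in endothelial-like nuclei too, where Nfil3 had 4, 7, 9 and 9 UMIs on control diet. Npas2 had 7 UMIs there in WT-CD replicate 1 and in R403Q-EMPA replicate 2.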
